A study of Mus musculus with 8 samples.

Results

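The genes described are 32 markers of liver sinusoidal and vascular endothelium, as they were measured in hepatic stellate cells sorted from mouse liver. They were chosen by name, with earlier results of these data known. All 32 had at least 1 probe set annotated to that gene alone, among 19938 genes measured in the same way, and where a gene had several, the one that was brightest on average was used. Reverted stellate cells (4 arrays) came from male Balb/c mice that had been given 4 injections of carbon tetrachloride (CCl4), a hepatotoxin, at 0.5 µl per g body weight and 2 injections a week, and had then been left for 45 days. Quiescent stellate cells (4 arrays) came from normal male Balb/c mice aged 18 weeks, and no vehicle injection is named for them. The labels put all mice at 18 weeks of age in one statement and the reverted group at 16 weeks in another. In both groups the cells were enriched on a density gradient, sorted for the autofluorescence of their retinoids and lysed straight after the sort. The endothelial cell was therefore not the cell that was sorted, and the comparison asks whether transcripts of its marker genes differed between the preparations. The labels do not say whether an array holds 1 mouse or several, so the p-values cover only the spread between these arrays, which may be technical.

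Sinusoidal endothelial cells line the channels of the liver lobule. They have pores and no continuous basement membrane, and they clear waste molecules from blood through scavenger, mannose and Fc receptors. Stellate cells lie in the thin space behind them, wrap around the same channels and share VEGF, angiopoietin and BMP signals with them. Several genes that are used as endothelial markers in other organs are also used by pericytes, so a marker's name alone does not assign its transcript to a cell. In these bulk preparations more endothelial RNA can mean more cells of that type or more RNA in each, and the arrays cannot tell them apart.

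Values are log2 units from robust multi-array averaging (RMA). The file has no background level, so the 1015 olfactory receptor genes on the array, a family of the nose, served as a guide to the dim end of the scale: their median level was 5.68 and their 95th percentile 6.96. All 19 measured stellate markers lay above that percentile, with a mean per array between 13.22 and 13.26 in reverted cells and between 13.32 and 13.35 in quiescent cells, so markers of the labelled cell type were high in all 8 arrays. Of the endothelial markers 28 lay above it. The 4 that did not were the mannose receptor gene Mrc1, the endomucin gene Emcn and the transcription factor genes Erg and Sox17. A level places a gene on the scale of its own probe set, and levels of different genes are not set against each other here as amounts of RNA.

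The 5′ ends of 4 of these genes are shown. Stab2, Fcgr2b and Kdr moved together from array to array, and the difference of Clec4g between the groups had the smallest p of the 32. Any bearing of the sequences on the expression values was not tested. Each line gives 250 bases before and 50 after the RefSeq transcript start on build GRCm38.p6, 5′ to 3′ on the gene's strand. Capitals mark AGGAAG or its reverse complement CTTCCT, a short form of the site bound by ETS factors such as ERG and FLI1, which are themselves on the list.
Stab2 (chr10:87007893-87008192, minus strand): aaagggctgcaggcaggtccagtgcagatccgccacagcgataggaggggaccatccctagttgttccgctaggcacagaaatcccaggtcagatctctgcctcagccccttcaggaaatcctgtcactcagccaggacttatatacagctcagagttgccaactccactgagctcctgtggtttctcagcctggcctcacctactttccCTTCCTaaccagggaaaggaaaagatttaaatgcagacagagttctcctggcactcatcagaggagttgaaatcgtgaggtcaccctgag
Fcgr2b (chr1:170976022-170976321, minus strand): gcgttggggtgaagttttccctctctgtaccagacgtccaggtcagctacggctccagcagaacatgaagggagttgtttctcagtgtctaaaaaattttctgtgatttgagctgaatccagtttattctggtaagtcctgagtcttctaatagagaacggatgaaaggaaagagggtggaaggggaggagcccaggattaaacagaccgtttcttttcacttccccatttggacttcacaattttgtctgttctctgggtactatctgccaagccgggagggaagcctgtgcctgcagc
Kdr (chr5:75978406-75978705, minus strand): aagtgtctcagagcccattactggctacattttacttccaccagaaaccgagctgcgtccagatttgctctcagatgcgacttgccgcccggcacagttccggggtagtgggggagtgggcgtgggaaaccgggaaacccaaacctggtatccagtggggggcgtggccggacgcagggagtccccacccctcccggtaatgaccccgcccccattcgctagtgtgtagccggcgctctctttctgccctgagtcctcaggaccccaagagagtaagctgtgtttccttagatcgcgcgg
Clec4g (chr8:3720602-3720901, minus strand): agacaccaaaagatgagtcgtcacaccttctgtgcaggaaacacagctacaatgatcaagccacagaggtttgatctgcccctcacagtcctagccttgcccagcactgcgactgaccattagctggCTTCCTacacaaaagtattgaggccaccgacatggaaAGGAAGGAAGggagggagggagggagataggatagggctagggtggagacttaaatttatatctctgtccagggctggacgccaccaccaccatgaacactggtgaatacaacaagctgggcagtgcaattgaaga
The Clec4g window held 3 matches, of which the last 2 overlap, the Stab2 window held 1, and the windows of Fcgr2b and Kdr held 0. RefSeq windows were found for 19 of the 32 genes, 24 windows in all. AGGAAG, searched on both strands, was in 14 of the 24 (58.3%) and in 35.4% of all 32851 windows of that length. The GATA motif AGATAA, on either strand, was in 2 of the 24 and 11.2% of all windows, and the SOX motif ACAAAG was in 3 of the 24 and 18.7% of all windows. These are matches of letters and not shown binding sites.

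Between reverted and quiescent cells, the endothelial markers showed no called difference. In limma with Benjamini-Hochberg adjustment over all 19938 genes, 0 of the 32 were higher and 0 were lower at an adjusted p under 0.05. Over all genes 0.527% were called higher and 0.186% lower. At an unadjusted p under 0.05 there were 2 of the 32, Clec4g and Lyve1, where all genes gave 16%. The mean was higher in reverted cells for 21 markers and lower for 11, and over all genes it was higher for 9253 and lower for 10685. The median log2 change, reverted minus quiescent throughout, was 0.07, against -0.01 over all genes, and single changes ran from -0.22 for Egfl7 to 0.50 for Clec4g. The median rested on single arrays: it was -0.0012 without reverted array 4 and 0.15 without quiescent array 2. Among the alternative settings that used all 8 arrays, only array weights gave a call, that of Clec4g (adjusted p = 0.0319).

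**Figure D1:**
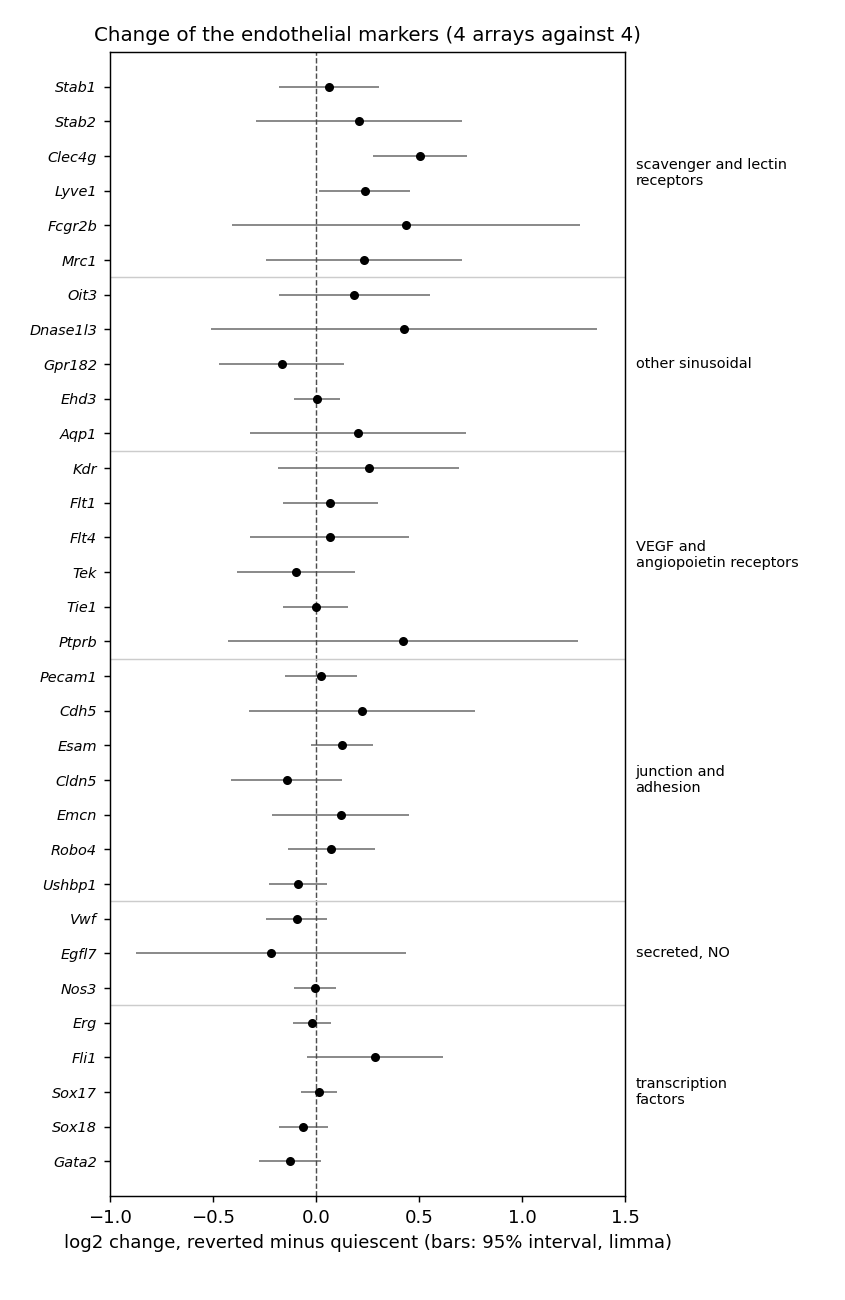
Log2 change (x axis, reverted minus quiescent) of the 32 endothelial markers with 95% intervals from limma, grouped by role from top to bottom. The intervals of Clec4g and Lyve1 lie above 0, that of Dnase1l3 reaches from -0.51 to 1.36, and that of Ehd3 from -0.10 to 0.12.

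Among the scavenger and lectin receptors, all 6 had a higher mean in reverted cells and 0 passed the adjusted test. Clec4g encodes LSECtin, a lectin of sinusoidal endothelium that binds sugars on pathogens and on activated lymphocytes. Its log2 value was 12.08, 12.38, 12.42 and 12.65 in reverted arrays 1 to 4, against 11.82, 11.92, 11.86 and 11.91 in quiescent arrays 1 to 4. Every reverted array lay above every quiescent array, an arrangement found upward for 4.64% of all genes and for no other of the 32. The opposite arrangement, all reverted arrays below, held for 0 of the 32 and 4.09% of all genes. The means were 12.38 ± 0.23 in reverted and 11.88 ± 0.05 in quiescent cells (SD, n = 4 each), a 1.42-fold difference with a 95% interval of 1.21 to 1.66 and an adjusted p of 0.063 in limma. Without reverted array 1, the lowest of the reverted arrays, the adjusted p was 0.0142, and without any other single array it ran up to 0.193. A further Clec4g probe set at a level of 7.73 had overlapping groups, between 7.71 and 7.85 in reverted and between 7.54 and 7.92 in quiescent arrays. With the mean of both probe sets the log2 change of Clec4g was 0.29, against 0.50 with the brighter one alone, and the adjusted p was 0.124.

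Lyve1, a hyaluronan receptor of sinusoidal and lymphatic endothelium that some macrophages also carry, had 8.48, 8.28, 8.23 and 8.48 in reverted arrays, against 8.21, 7.90, 8.08 and 8.35 in quiescent arrays. The groups overlapped through quiescent array 4, and the log2 change of 0.24 (95% interval 0.02 to 0.46) had an adjusted p of 0.288 in limma. Quiescent array 2 was the lowest of the 8 arrays for this gene.

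The stabilins, which take up hyaluronan, collagen fragments and oxidised lipoproteins, spread widely within both groups. Stab2 had 7.87, 7.87, 7.97 and 8.65 in reverted arrays, against 7.55, 8.39, 7.99 and 7.59 in quiescent arrays. Reverted array 4 and quiescent array 2 were the high ones, and the groups overlapped. The difference of 0.21 (95% interval -0.29 to 0.71, adjusted p = 0.651 in limma) was smaller than the SD within either group, 0.38 and 0.39. Stab1 was in the same order at the top, with 8.44 in reverted array 4 and 7.99 to 8.03 in the other reverted arrays, and with 8.21 in quiescent array 2 and 7.91 to 8.11 in the other quiescent arrays.

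Fcgr2b, the inhibitory Fc receptor with which the sinusoid clears immune complexes, showed the same arrays at the top with a wider span. Its values were 7.97, 7.73, 8.34 and 9.16 in reverted arrays, against 7.17, 8.70, 8.13 and 7.46 in quiescent arrays. The groups overlapped over most of their range, and the interval of the change, -0.41 to 1.28, leaves room for a fold between 0.75 and 2.43. Mrc1, the mannose receptor, stood at 7.27 in reverted array 4 and 6.95 in quiescent array 2, while the other 6 arrays lay between 6.19 and 6.55. Only reverted array 4 was above the olfactory receptor percentile of 6.96.

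**Figure D2:**
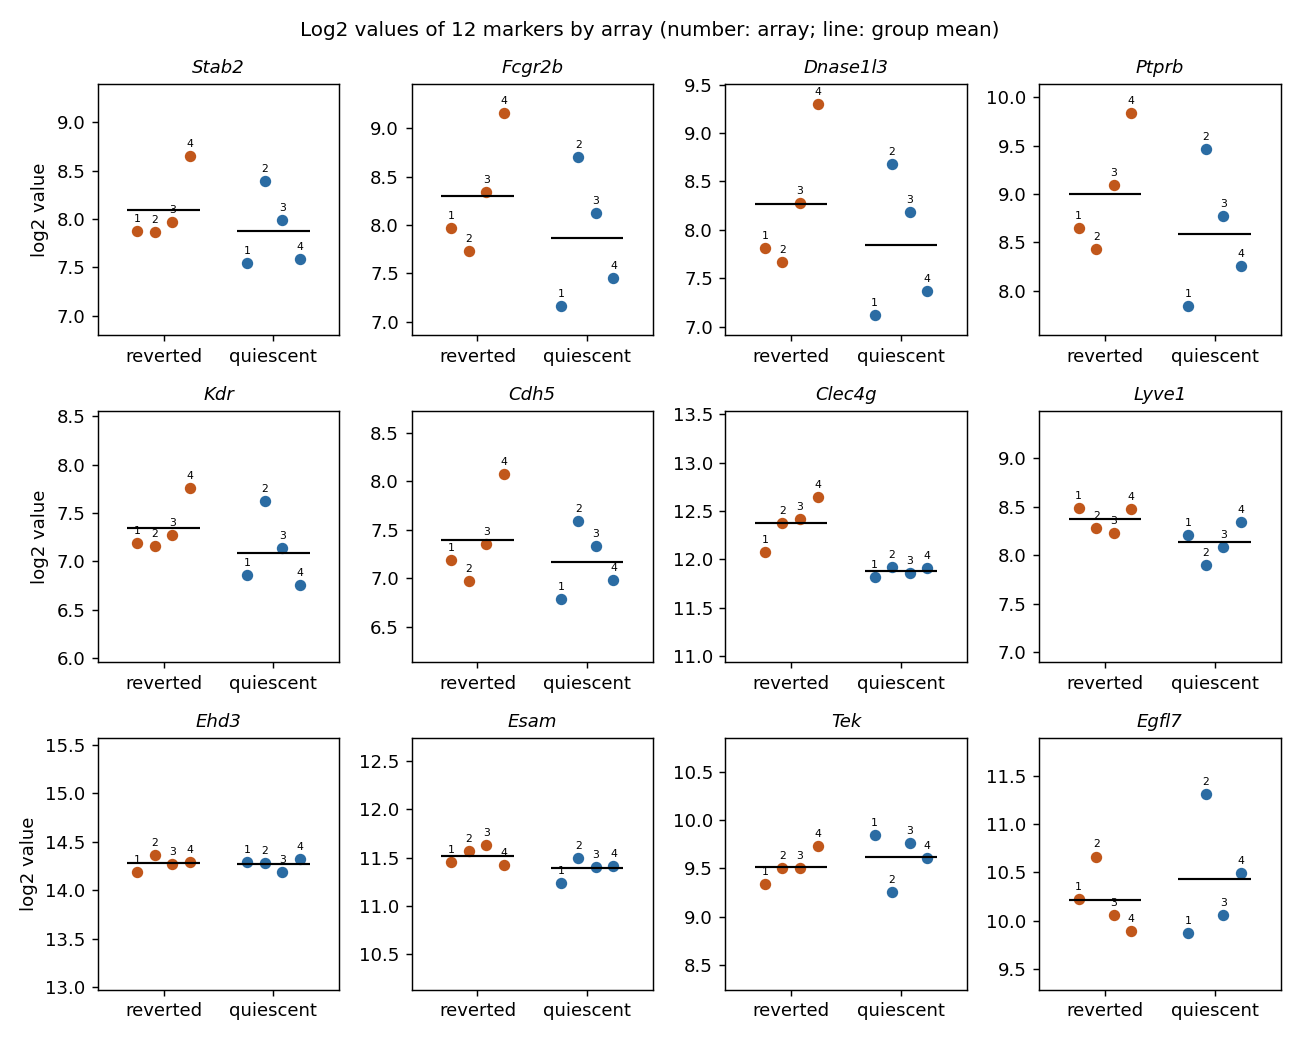
Log2 value (y axis, a span of 2.6 units in every panel) of 12 endothelial markers in reverted and quiescent arrays, each point 1 array with its number and each line the group mean. Reverted array 4 and quiescent array 2 are at the top of their groups for Stab2, Fcgr2b, Dnase1l3, Ptprb, Kdr and Cdh5. The same holds for Clec4g, by a small margin in the quiescent group. Tek departs from this in the quiescent group, Egfl7 and Esam in the reverted group, and Lyve1 and Ehd3 in both. The 8 arrays span 0.18 log2 units for Ehd3 and 0.39 for Esam.

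Of the 5 other sinusoidal genes 0 passed, and 4 had an SD within groups in the top 10% of all genes. Dnase1l3, a secreted nuclease that digests DNA in chromatin particles, had 7.82, 7.67, 8.28 and 9.30 in reverted arrays, against 7.12, 8.68, 8.18 and 7.37 in quiescent arrays. Its range over the 8 arrays, 2.18 log2 units, was the widest of the 32. Oit3, which encodes a zona pellucida domain protein of sinusoidal endothelium, had 7.37, 7.45, 7.54 and 8.09 in reverted arrays, against 7.29, 7.68, 7.54 and 7.19 in quiescent arrays. Aqp1, a water channel that bile duct cells use as well, ran from 8.01 to 9.04 in reverted arrays and from 7.85 to 8.66 in quiescent arrays. In all 3 the highest array of each group was again reverted array 4 and quiescent array 2, and the changes of 0.19 to 0.43 had adjusted p between 0.581 and 0.676.

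Ehd3, an ATPase of endocytic recycling, stayed between 14.19 and 14.36 in reverted and between 14.19 and 14.32 in quiescent arrays. Its change was 0.01 (95% interval -0.10 to 0.12). Its level was at percentile 99.9 of all genes, and whether the top of the scale limits its spread was not tested. Gpr182, an atypical chemokine receptor of sinusoidal and lymphatic endothelium, had 10.07, 10.45, 10.44 and 10.43 in reverted arrays, against 10.38, 10.91, 10.33 and 10.46 in quiescent arrays. Quiescent array 2 was high and reverted array 1 low, and the change of -0.17 had an adjusted p of 0.548.

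Of the growth factor receptors, Kdr (VEGFR2), the main signalling receptor for VEGF-A, had 7.19, 7.16, 7.28 and 7.76 in reverted arrays, against 6.85, 7.62, 7.13 and 6.75 in quiescent arrays. Its change was 0.26 (95% interval -0.18 to 0.69, adjusted p = 0.528 in limma). Flt4 (VEGFR3), the receptor for VEGF-C, had the same arrays at the top, with 7.61 in reverted array 4 and 7.46 in quiescent array 2, and a change of 0.07 (adjusted p = 0.864). Flt1 (VEGFR1), which binds VEGF-A with high affinity and limits its signal, stayed between 7.31 and 7.54 in reverted and between 7.18 and 7.64 in quiescent arrays.

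Ptprb, the phosphatase VE-PTP that acts on Tie2 and VE-cadherin, had 8.65, 8.44, 9.09 and 9.84 in reverted arrays, against 7.84, 9.46, 8.77 and 8.25 in quiescent arrays. Its change of 0.42 (95% interval -0.42 to 1.27) had an adjusted p of 0.59. The angiopoietin receptor itself shared reverted array 4 as its highest reverted array, but it did not follow its phosphatase in the quiescent arrays. Tek (Tie2) had 9.34, 9.50, 9.50 and 9.73 in reverted arrays, against 9.84, 9.26, 9.77 and 9.61 in quiescent arrays, so that quiescent array 2, high for Ptprb, was the lowest of the 8. Tie1, the orphan partner of Tie2, averaged 9.22 ± 0.15 in reverted and 9.22 ± 0.05 in quiescent cells (SD, n = 4 each).

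Genes of endothelial junctions and adhesion gave 0 calls among 7. Cdh5 (VE-cadherin), the adhesion molecule of endothelial junctions, had 7.18, 6.97, 7.35 and 8.07 in reverted arrays, against 6.78, 7.59, 7.33 and 6.98 in quiescent arrays. Pecam1 (CD31) had 7.03, 7.00, 7.13 and 7.29 in reverted arrays, against 7.00, 7.25, 7.09 and 7.00 in quiescent arrays. Both had reverted array 4 and quiescent array 2 at the top, as Stab2 had, at different spans, 1.29 log2 units for Cdh5 and 0.29 for Pecam1, whose level lies just above the olfactory receptor percentile. Emcn, the sialomucin endomucin, and Robo4, a guidance receptor that steadies vessel walls, had the same arrays at the top of their groups, with changes of 0.12 and 0.07.

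Esam, a tight junction adhesion molecule, had 11.45, 11.56, 11.63 and 11.42 in reverted arrays, against 11.24, 11.50, 11.41 and 11.42 in quiescent arrays, and its change of 0.13 (95% interval -0.02 to 0.28) had an adjusted p of 0.374. Cldn5, the claudin of tight endothelial barriers, was highest at 7.84 in quiescent array 2 and lowest at 7.16 in reverted array 2. Ushbp1, a little studied gene used as an endothelial marker, had 7.65, 7.78, 7.70 and 7.71 in reverted arrays, against 7.87, 7.93, 7.73 and 7.66 in quiescent arrays, with a change of -0.09.

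The secreted factors and the nitric oxide synthase gave 3 lower means and 0 calls. Vwf (von Willebrand factor), which tethers platelets and is low in normal sinusoids, had 7.70, 7.54, 7.65 and 7.60 in reverted arrays, against 7.77, 7.83, 7.74 and 7.54 in quiescent arrays, a change of -0.09 (95% interval -0.24 to 0.05, adjusted p = 0.492). Egfl7, a secreted angiogenic factor, had 10.23, 10.66, 10.06 and 9.90 in reverted arrays, against 9.87, 11.31, 10.06 and 10.49 in quiescent arrays. Quiescent array 2 was high, but reverted array 4 was the lowest of its group, unlike Stab2 or Ptprb. Nos3, the endothelial nitric oxide synthase, stayed between 7.54 and 7.57 in reverted and between 7.49 and 7.67 in quiescent arrays.

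Of the 5 transcription factors 0 passed, and 2 had a higher mean in reverted cells. Fli1, an ETS factor of endothelial and blood cells, had 10.32, 10.32, 10.64 and 10.74 in reverted arrays, against 10.42, 10.36, 9.80 and 10.30 in quiescent arrays. Its change of 0.29 (95% interval -0.04 to 0.62, adjusted p = 0.366 in limma) went with a low value in quiescent array 3, and the groups overlapped. Gata2, a GATA factor of endothelium and blood progenitors, had 8.54, 8.43, 8.58 and 8.55 in reverted arrays, against 8.60, 8.83, 8.67 and 8.52 in quiescent arrays, a change of -0.13 (adjusted p = 0.374). Erg, the ETS factor that keeps endothelial identity, and the SOXF factors Sox17 and Sox18, which act in arterial and lymphatic specification, had changes between -0.06 and 0.01. Erg and Sox17 lie in the dim range, where a change may be understated.

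**Figure D3:**
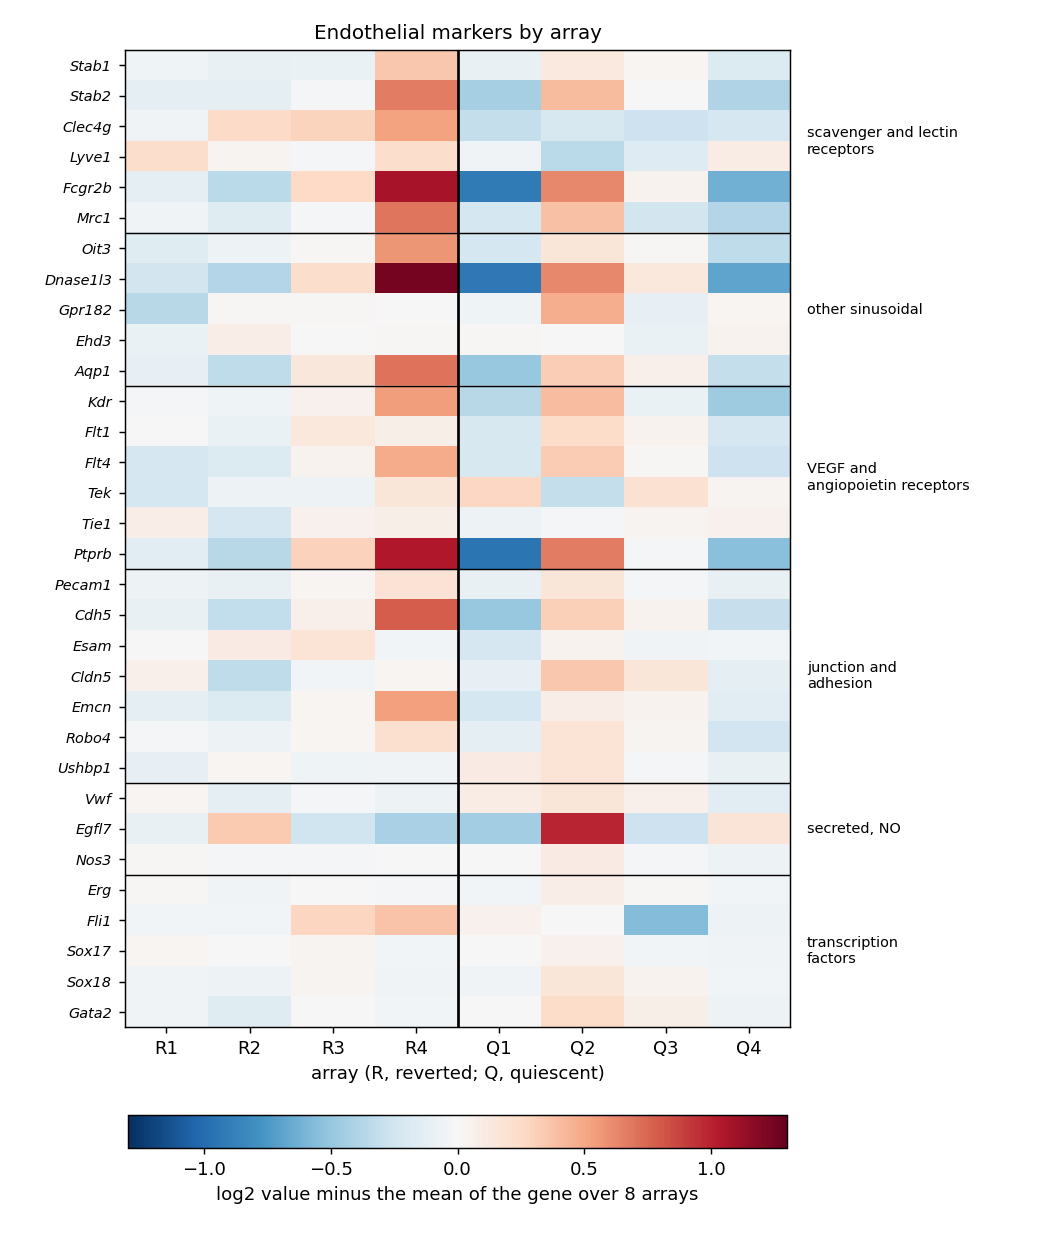
Log2 value of each of the 32 endothelial markers (rows, grouped by role) in each array (columns) minus the gene's mean over the 8 arrays, red above and blue below that mean. The columns of reverted array 4 and quiescent array 2 are red for most receptor and junction genes, with little contrast between the groups.

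A feature of many of the markers was this order of arrays, which cut across the groups. It was noticed in the values and then counted, so the counts describe it. Reverted array 4 was the highest reverted array for 17 of the 32, with 24.5% over all genes, and quiescent array 2 the highest quiescent array for 27 of the 32, with 25.4% over all genes. Both held for 15 of the 32 (46.9%), against 5.38% of all genes and 9.85% of the olfactory receptor genes. Reverted array 4 followed by reverted array 3 held for 16 of the 32, against 10.2% of all genes. The 15 were Stab1, Stab2, Clec4g, Fcgr2b, Mrc1, Oit3, Dnase1l3, Aqp1, Kdr, Flt4, Ptprb, Pecam1, Cdh5, Emcn and Robo4. For Clec4g the lead in the quiescent group was small, with 11.92 in array 2 and 11.91 in array 4. By role they were 5 of 6 scavenger and lectin receptors, 3 of 5 other sinusoidal genes, 3 of 6 growth factor and angiopoietin receptors and phosphatase, 4 of 7 junction genes, 0 of 3 secreted or nitric oxide genes and 0 of 5 transcription factors. For all of the secreted or nitric oxide genes, and for the transcription factors except Fli1, array 2 was still the highest quiescent array. The SD within groups was in the top 10% of all genes for 20 of the 32.

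With the group means removed, the correlation across the 8 arrays averaged 0.398 over the 496 pairs of markers and 0.007 over all pairs of genes. It was higher among hepatocyte markers, at 0.749, and lower among the further pan-endothelial and sinusoidal genes, at 0.124 and 0.095. These are averages over the same 8 arrays, which share 1 normalization, and they are given as a description. Without reverted array 4 and quiescent array 2 the average over marker pairs was 0.244, and that over all genes stayed near 0, at 0.010. By role it was then 0.046 for the scavenger and lectin receptors, against 0.451 with all arrays, and -0.235 for the 3 secreted or nitric oxide genes, against 0.471. For the growth factor and angiopoietin receptors it was 0.483, against 0.365. For the transcription factors it was 0.27, against 0.513. For the junction genes it was 0.367, against 0.485, and for the other sinusoidal genes 0.162, against 0.443. Lyve1 and Tek had negative correlations with the average of the other markers, at -0.539 and -0.333. Ehd3, which varied little, was nearer 0 at -0.152.

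With both arrays left out, 3 reverted and 3 quiescent arrays still gave 0 calls among the 32 in limma. Over all genes this fit called 24 higher and 9 lower. The median change was then 0.07, as with all arrays. Fcgr2b, Ptprb and Dnase1l3 had changes of 0.43, 0.44 and 0.36, against 0.44, 0.42 and 0.43 with all 8 arrays. Each depended on single arrays. Without reverted array 4 alone the changes were 0.15, 0.14 and 0.08, and without quiescent array 2 alone they were 0.72, 0.72 and 0.71. Without quiescent array 1 they were 0.20, 0.18 and 0.19, and 0 passed the adjusted test in any of these fits.

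Markers of other cells were read on the same arrays. Of 17 measured macrophage markers 5 lay above the olfactory receptor percentile. The Kupffer cell genes Vsig4 and Cd5l were at 5.85 and 5.90, near the median of that family. The mean of the 17 ran from 6.69 to 6.81 in reverted and from 6.70 to 6.80 in quiescent arrays. Macrophages can also carry Mrc1 and Fcgr2b, and their part in these values was not tested. Hepatocyte markers, 16 measured, had array means of 9.45, 8.98, 9.13 and 9.26 in reverted arrays, against 8.56, 9.24, 8.90 and 8.35 in quiescent arrays. In the quiescent group their order of arrays, with array 2 first and array 3 next, was shared by 14 of the 16 hepatocyte markers and 18 of the 32 endothelial markers, against 7.58% of all genes. In the reverted group array 1 led the hepatocyte mean and array 4 the endothelial one. Still, 4 of the 16 hepatocyte markers (Apob, Trf, Fgb and Fga) had both reverted array 4 and quiescent array 2 at the top of their groups. Array 4 followed by array 3 in the reverted group held for 0 of the 16 hepatocyte markers. The median change of the hepatocyte markers was 0.43, and the part of hepatocyte RNA in the endothelial values was not tested.

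**Figure D4:**
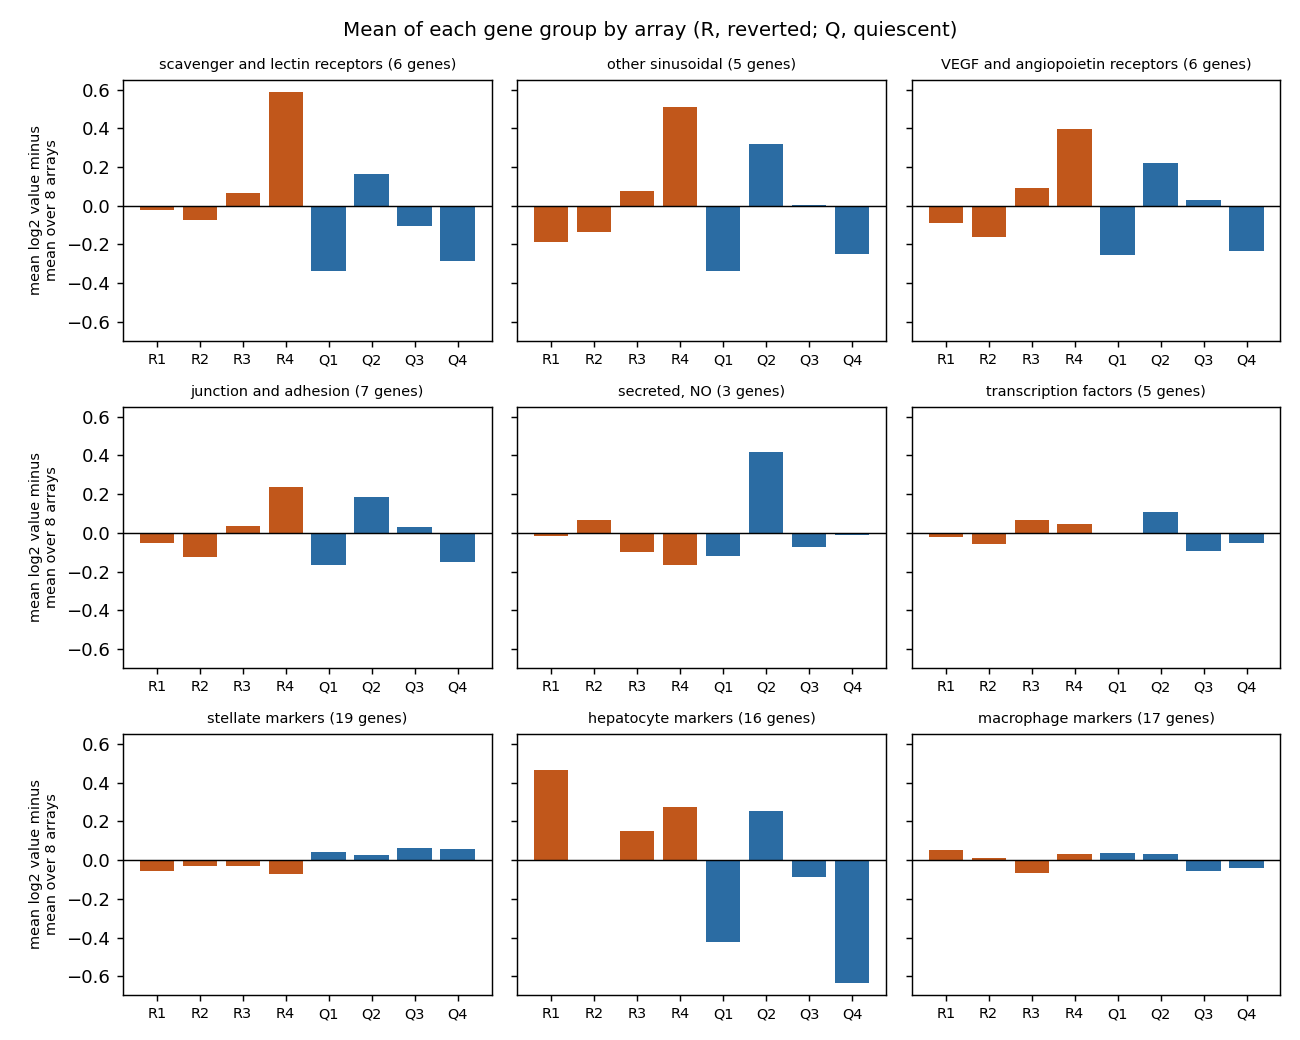
Mean log2 value of each gene group in each array minus its mean over the 8 arrays (y axis), with reverted arrays at the left and quiescent arrays at the right of each panel. Reverted array 4 and quiescent array 2 stand highest in their groups for the sinusoidal, receptor and junction genes, the hepatocyte markers are lowest in quiescent arrays 1 and 4, and the stellate mean is lower in every reverted array (13.22 to 13.26) than in every quiescent array (13.32 to 13.35).

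Endothelial genes outside the 32, in lists of 27, 20, 18 and 5 measured genes, gave 2 falls, where 0.186% of all genes were called lower. These 2 calls were not checked under the alternative settings. Of 27 further pan-endothelial genes, 0 rose and 1 fell, the thrombomodulin gene Thbd, which encodes a thrombin receptor that slows clotting. Thbd had 10.22, 9.98, 10.13 and 10.31 in reverted arrays, against 10.92, 10.47, 10.80 and 10.72 in quiescent arrays, a change of -0.57 (adjusted p = 0.0408). Cd34, a sialomucin of capillary endothelium and of fibroblasts, had 8.06, 7.44, 7.59 and 7.92 in reverted arrays, against 7.12, 7.16, 7.20 and 7.12 in quiescent arrays. The groups did not overlap and the change was 0.60, with an adjusted p of 0.0631. Reverted array 4 and quiescent array 2 were at the top of their groups for 6 of the 27, the adhesion receptor genes Adgrl4 and Adgrf5 and Mmrn2, Myct1, Cd93 and S1pr1 (22.2%).

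Of 20 further sinusoidal and angiocrine genes 0 passed in either direction. Adam23, a disintegrin family adhesion protein, had 9.90, 10.58, 9.62 and 9.79 in reverted arrays, against 8.14, 9.27, 8.25 and 8.62 in quiescent arrays, a change of 1.40 with an adjusted p of 0.0553. Wnt9b, a central vein Wnt ligand, changed by -0.18 (adjusted p = 0.166). The order of arrays described above held for 4 of the 20, F8, Cd36, Nrp2 and Il1a.

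Among 18 genes of capillary, arterial and venous endothelium, 0 rose and 1 fell, the Notch target Hey1, with 9.30, 9.17, 9.41 and 9.12 in reverted arrays, against 9.90, 9.70, 10.07 and 9.70 in quiescent arrays (change -0.59, adjusted p = 0.0273). The Notch ligand gene Dll4 averaged 9.32 in reverted and 10.07 in quiescent cells (adjusted p = 0.153). Here 1 of the 18, Fabp4, had reverted array 4 and quiescent array 2 at the top. Of 5 lymphatic genes 0 passed, with Foxc2 at 0.17 (adjusted p = 0.458) and Pdpn at -0.08 (adjusted p = 0.505).

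Ligands that act on endothelium, 14 measured, gave 0 rises and 0 falls. Dhh, the Desert hedgehog ligand, averaged 9.21 in reverted and 9.59 in quiescent cells (adjusted p = 0.0606), and Vegfb averaged 10.49 and 10.68 in the same order (adjusted p = 0.133). Gdf2 and Bmp10, which encode the circulating endothelial ligands BMP9 and BMP10, had changes of -0.00 and 0.15 (adjusted p = 0.984 and 0.227). Of the 14, 0 had reverted array 4 and quiescent array 2 at the top.

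Over all genes 0.527% were called higher and 0.186% lower, and 16% had an unadjusted p under 0.05. Of all genes 9253 had a higher mean in reverted cells and 10685 a lower one. Among the remaining lists, 1 of 19 stellate markers fell (Gfap, -0.49, adjusted p = 0.0182), and Angptl6 had a change of -0.18 (adjusted p = 0.143). The mean was lower in reverted cells for all 19, and their median change was -0.05. Of 16 hepatocyte markers 1 fell (Trf, the transferrin gene, -0.27, adjusted p = 0.04), and Hpx had a change of 0.44 (adjusted p = 0.0981). Trf was the only 1 of the 16 with a lower mean in reverted cells, the other 15 had a higher one, and 10 were at an unadjusted p under 0.05. Of 14 mesothelial and portal fibroblast markers 2 rose, Wt1 (1.39, adjusted p = 0.00801) and Dpt (1.69, adjusted p = 0.0174), while 11 of the 14 had a lower mean in reverted cells and the median change was -0.08. Of 17 macrophage, 11 lymphocyte and 7 cholangiocyte markers 0 passed, with adjusted p of 0.129 for Lyz2 (no overlap of the groups, with the reverted values higher), 0.27 for Folr2, 0.357 for Cd79b, 0.416 for Cd8a, 0.364 for Epcam and 0.445 for Cldn7.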

How the data were processed

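RNA of sorted stellate cells (150 ng per sample) was amplified and biotin-labelled for a whole-transcript array, per the labels' protocols. The deposited log2 values were made with RMA, per the submitters' processing notes. Its settings, version and genome build are not given in the sources used here. All 35556 probe sets together had 0 missing values, and medians per array lay between 7.66 and 7.74. Of these, 21789 carry 1 gene symbol in the platform annotation. The RefSeq table of assembly GRCm38.p6 checked the names and changed 0. The number of arrays limits the precision.

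From these values, the change of each gene was fitted with limma 3.58.1 (lmFit, then eBayes; R 4.3.3) and tested 2-sided, with Benjamini-Hochberg adjustment over 19938 genes and no filter or covariate. The fit was tested on simulated data with noise drawn independently for each gene and array. Deviations shared between genes, as described above, were not simulated. Python 3.11.15, pandas 2.3.3 and matplotlib 3.10.9 prepared tables and plots. The 32 genes, the 11 comparison lists and the order of arrays that was counted were chosen with earlier results of these data known.

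All 32 markers were reported whatever their test. Values per array were given for the 2 with the smallest p in each role and for Stab2, Clec4g, Lyve1, Pecam1, Cdh5 and Kdr, and for Fcgr2b, Dnase1l3 and Tek after their values were seen. Of the other lists, called genes and the 2 with the smallest p were named; other genes of these lists were named after their values were seen. Alternatives were quantile normalization, median centring, leaving out the lowest 25% or lower 50% of genes, the mean of all probe sets, array weights, robust variance with an intensity trend, a block for the replicate number and omission of each array in turn. Leaving out reverted array 4 and quiescent array 2 together was chosen after seeing the data.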

Additional observations from a re-analysis of the deposited data

Results flagged for a closer look

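In 64 groups of 4 arrays (32 markers in 2 groups), 5 had a single array far from the other 3 by Dixon's 95% criterion. Chance singles out about 1 in 20 such groups. Reverted array 4 was the high array for Stab1 (8.44, the others 7.99 to 8.03), Stab2 (8.65, the others 7.87 to 7.97) and Mrc1 (7.27, the others 6.41 to 6.55). Reverted array 1 was low for Gpr182 (10.07, the others 10.43 to 10.45), and reverted array 2 was low for Tie1 (9.00, the others 9.27 to 9.30).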

How the results depend on the processing

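Under the 17 alternatives 0 markers were called lower, and Clec4g alone was called higher, with array weights (1 call, adjusted p = 0.0319) and without reverted array 1 (adjusted p = 0.0142). Leaving out 1 array at a time gave 0 to 1 calls higher and 0 lower among the markers, a median marker change between -0.0012 (without reverted array 4) and 0.15 (without quiescent array 2), and between 41 and 175 rises and 13 and 72 falls over all genes, where the 8 arrays gave 105 and 37. Rises numbered 41 without reverted array 3 or 4, 53 without quiescent array 1 and 175 without quiescent array 4. Falls numbered 14, 18 and 13 without reverted array 2, 3 or 4, and 20, 20 and 72 without quiescent array 1, 3 or 4. Falls over all genes numbered 91 after quantile normalization. Array weights gave 218 rises and 88 falls, and leaving out reverted array 4 and quiescent array 2 together gave 24 and 9. With the replicate number as a block 48 rose and 15 fell, with 0 markers called. Same-numbered arrays correlated between -0.148 and 0.081 in their deviations, so the numbers were not taken to pair samples. The sign held under every alternative for 22 of the 32 markers. Nos3 was at 0.029 and Erg at 0.020 after quantile normalization, Tie1 at 0.018 with array weights, and Egfl7, Nos3 and Erg at 0.18, 0.030 and 0.0091 without both arrays. With 1 array left out the changes ran from -0.044 to 0.12 for Stab1, from -0.023 to 0.036 for Ehd3, from -0.082 to 0.19 for Flt4, from -0.031 to 0.071 for Tie1, from -0.035 to 0.080 for Pecam1, from -0.0030 to 0.37 for Cdh5, from -0.036 to 0.20 for Emcn, from -0.41 to 0.072 for Egfl7, from -0.029 to 0.031 for Nos3 and from -0.034 to 0.0083 for Erg. The cause of these shifts was not tested. Without the lower 50% of genes 12 markers were left, and without the lowest 25% 30 were. Signal over background was not used here, so changes of dim markers may be understated.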
